A study of Mus musculus with 96 samples.

Results

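Bile acids are made in the liver from cholesterol by a set of hydroxylases, joined to an amino acid, pumped into bile and taken up again from the blood. A classic route opens with the sterol 7-alpha-hydroxylase and an alternative route with the sterol 27-hydroxylase. The pool is held by feedback, in which bile acids activate a nuclear receptor that induces a repressor of the synthesis genes. The genes described here are 10 of the 56748 in the count table, chosen by name for their roles in this pathway. Cyp7a1 (ENSMUSG00000028240), Cyp8b1 (ENSMUSG00000050445), Cyp7b1 (ENSMUSG00000039519) and Cyp27a1 (ENSMUSG00000026170) encode the hydroxylases. Slc27a5 (ENSMUSG00000030382) and Baat (ENSMUSG00000039653) encode the ligase and transferase of conjugation, Slc10a1 (ENSMUSG00000021135) the uptake carrier and Abcb11 (ENSMUSG00000027048) the export pump. Nr1h4 (ENSMUSG00000047638) encodes the bile acid receptor FXR, and Nr0b2 (ENSMUSG00000037583) the repressor SHP.

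RNA-seq counts from liver, skeletal muscle and cerebral cortex were compared between mice fed ad libitum (AL) and mice on intermittent fasting (IF), to ask how a daily fast alters each tissue. Mice 1 to 8 (AL) and 9 to 16 (IF) are male C57BL/6 mice on normal chow that began the schedules at 6 weeks of age and kept them for 4 months, with 16 h without food each day in IF and food in the light phase. They were killed in the morning, IF mice at the end of a scheduled fast, so length of the fast, hours since the last meal and feeding phase cannot be told apart. Mice 25 to 32 (AL) and 33 to 40 (IF) are listed as female with the same diet names; their age, strain, fasting hours, time on the diet and handling are not given in the sources used here, so the sets were tested apart, and sex and any separate handling cannot be told apart. Each tissue and diet had 8 mice per set, except cortex AL in mice 1 to 16, where 1 library was left out.

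Of the 96 libraries, 95 were used, with 26097314 to 49838004 counts each. The omitted library, cortex AL mouse 1, is listed as male but held Xist, the X-inactivation transcript, at 213 CPM (counts per 1000000 counts of a library) and no count of the Y-linked genes Ddx3y, Uty, Kdm5d and Eif2s3y. In the other libraries of mice 1 to 16 Xist reached at most 0.612 CPM, and in mice 25 to 40 it was at least 36.8 CPM. Tissue labels were checked against marker genes. Summed hepatocyte markers were at least 45395.1 CPM in every liver library, skeletal muscle markers at least 118926.5 CPM in muscle, and neuron and glia markers at least 8189.6 CPM in cortex. In cortex, only Ttr of the 8 hepatocyte markers had a mean above 1 CPM in any group. Summed hepatocyte markers there had group medians of 9.49 to 29.2 CPM. Cortex AL mice 2 (564.8 CPM) and 4 (3103.8) and IF mice 11 (3367.3), 14 (1553.2), 34 (1544.6) and 36 (4270.5) stood far higher. Their part in the cortex values was not tested.

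In liver, each of the 10 genes was detected in all 32 libraries, and all passed the filter on low counts. Per kilobase of gene length and pooled over both mouse sets and diets, Cyp27a1 had the highest mean level, at 325 CPM per kb (range 181 to 690 over 32 libraries), followed by Slc27a5 at 225 CPM per kb (138 to 306). Baat (121 CPM per kb), Nr1h4 (112), Slc10a1 (109.6) and Abcb11 (86.4) lay close together. Below them came Cyp8b1 (74.4 CPM per kb), Nr0b2 (65.5), Cyp7b1 (58.3, range 6.07 to 182) and Cyp7a1, the lowest at 14.2 CPM per kb (1.89 to 36.1). The ranges of neighbours in this pooled order overlapped throughout, so no step between adjacent genes exceeded the spread over libraries. The order was not the same in each set. Cyp8b1 had means of 119 (AL) and 95.8 (IF) CPM per kb in mice 1 to 16, above Slc10a1 and Abcb11 under both diets and above Nr1h4 under AL, and of 46.0 and 36.7 CPM per kb in mice 25 to 40. Cyp7b1 had means of 79.7 (AL) and 133.7 (IF) CPM per kb in mice 1 to 16, and of 11.2 and 8.48 CPM per kb in mice 25 to 40, where it was the lowest of the 10. Cyp7a1 had means of 7.87 and 4.12 CPM per kb in mice 1 to 16, the lowest there, and of 21.6 and 23.2 CPM per kb in mice 25 to 40.

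**Figure D1:**
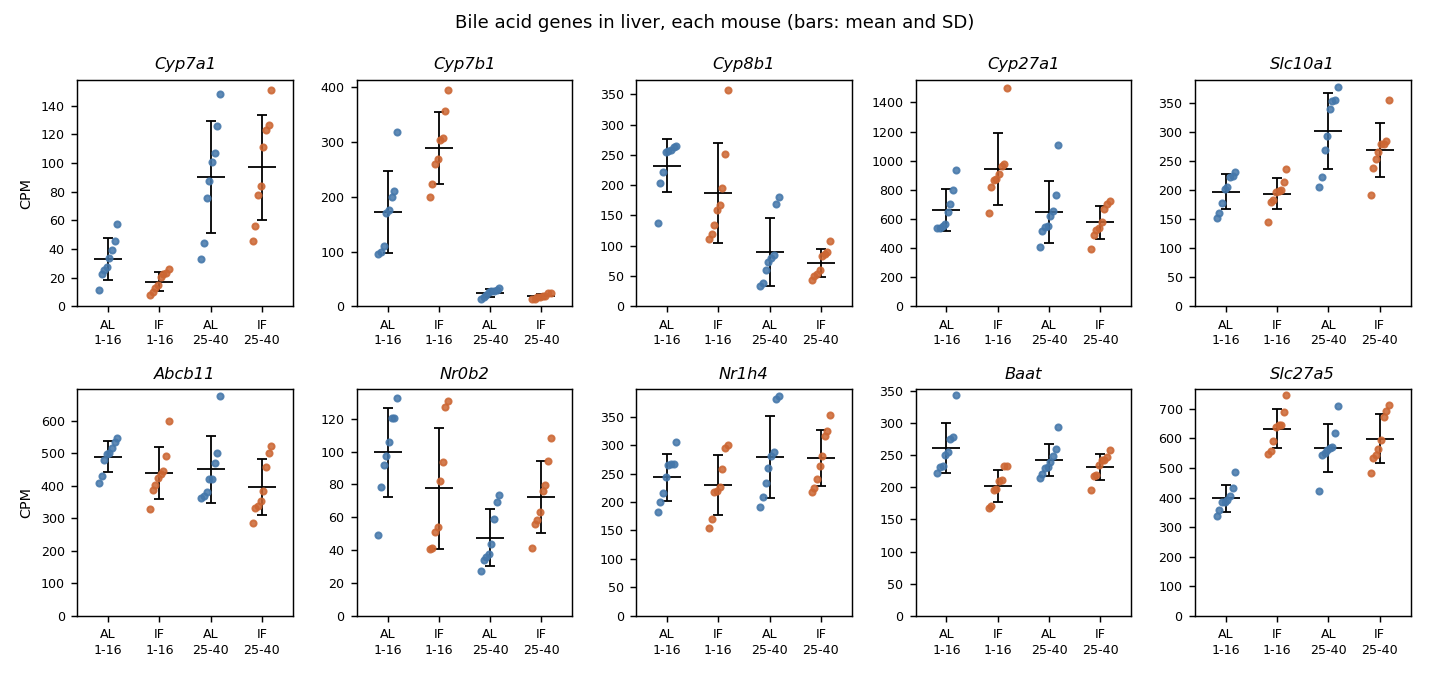
Level of each of the 10 genes in liver in CPM (vertical axes, from 0) for every mouse (points), by diet and mouse set, 8 mice per group, with bars for mean and SD. Slc27a5 in mice 1 to 16 is the only panel in which IF and AL of 1 set do not overlap, and Cyp7b1 lies between 13.1 and 32.8 CPM in every mouse of 25 to 40.

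Among mice 1 to 16, the liver under IF held less Cyp7a1 and Baat mRNA and more Cyp7b1, Cyp27a1 and Slc27a5 mRNA than under AL. Of the 10 genes, 5 passed the test (edgeR, adjusted p under 0.05), 3 higher and 2 lower under IF. Of all 16204 genes tested, 7234 did, which is 44.6% (23.5% higher and 21.1% lower), so the members' share is near the background and is not a result about these genes as a group. Their median log2 fold change was -0.22, beside 0.06 over all genes tested. The values of single members are what the comparison gives. Fewer cells of a type and less RNA per cell cannot be told apart in these bulk tissues.

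Cyp7a1, the rate-limiting enzyme of the classic route, ran from 11.5 to 57.8 CPM under AL (median 30.5, n = 8) and from 7.87 to 25.97 CPM under IF (median 17.7, n = 8). All 8 IF mice lay below the AL median, but the groups overlapped, because AL mice 2, 3 and 4 were in the IF range. Cyp7a1 fell, with a log2 fold change of -1.04 (SE 0.29, 95% interval -1.66 to -0.42, adjusted p = 0.00835 by edgeR's quasi-likelihood test). Of 25 alternatives 23 kept the call, among them each mouse left out in turn (-1.17 to -0.91). It was lost with an erythrocyte covariate (-1.07, adjusted p = 0.119) and without IF mice 9, 10, 14 and 16, chosen after seeing the data (-1.10, 0.0638), in a range of 0.000808 to 0.119.

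Cyp8b1, the sterol 12-alpha-hydroxylase that sets the share of cholic acid, ran from 137 to 264 CPM under AL (median 255) and from 111 to 358 CPM under IF (median 163). In 7 of 8 IF mice the level lay below the AL median, while IF mouse 12 was the highest of all 16, and all 8 AL mice lay within the IF range. The log2 fold change was -0.41 (SE 0.21, 95% interval -0.84 to 0.02, adjusted p = 0.111), short of the threshold. It passed without IF mouse 12 (-0.60, adjusted p = 0.00560), IF mouse 11 (-0.54, 0.0350) or AL mouse 3 (-0.49, 0.0490), and by DESeq2 (-0.44, 0.0473), in 4 of 25 alternatives. With an erythrocyte covariate the sign turned (0.14); adjusted p ranged from 0.00560 to 0.911 over the alternatives.

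Cyp7b1, the oxysterol 7-alpha-hydroxylase of the alternative route, ran from 95.4 to 319 CPM under AL (median 173) and from 199.9 to 395 CPM under IF (median 287). Every IF mouse exceeded the AL median, and only AL mice 1 and 8 reached into the IF range. Cyp7b1 mRNA rose by a log2 fold change of 0.66 (SE 0.23, 95% interval 0.17 to 1.15, adjusted p = 0.0263, edgeR). The paper lists the CYP7B1 protein among those lower in liver under IF, opposite in direction to this mRNA change. Protein was not measured here. With each mouse left out in turn, the mRNA log2 fold change was 0.56 to 0.84 and the call was kept in 13 of 16 fits. The call was lost without AL mouse 6 (0.60, adjusted p = 0.0524), IF mouse 10 (0.63, 0.0522) or IF mouse 15 (0.58, 0.0538). It was also lost without mice 2 and 10 together (0.53, 0.0719), with no filter on low counts (0.63, 0.0720), with the replicate number as a block (0.74, 0.0704) and without IF mice 9, 10, 14 and 16, chosen after seeing the data (0.70, 0.104); 18 of 25 alternatives kept it, with adjusted p from 0.00192 to 0.104.

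Cyp27a1, the mitochondrial sterol 27-hydroxylase that opens the alternative route, ran from 539 to 935 CPM under AL (median 606) and from 643 to 1499.9 CPM under IF (median 891). All 8 IF mice were above the AL median, with IF mouse 13 far above the next at 977 CPM, and the groups overlapped. Cyp27a1 rose by 0.41 on the log2 scale (SE 0.14, 95% interval 0.12 to 0.70, adjusted p = 0.0194). Without IF mouse 13 the log2 fold change was 0.27 and the adjusted p 0.0971, the highest of its alternatives (0.00484 to 0.0971). In 1 fit over all 4 liver groups it was 0.38 with adjusted p = 0.0576.

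The conjugation enzymes moved in opposite directions. Slc27a5, the bile acyl-CoA synthetase that activates bile acids, ran from 336 to 487 CPM under AL (median 388) and from 547 to 746 CPM under IF (median 641). Its groups did not overlap, as in 1 of the 10 members and in 14.6% of all genes tested. Slc27a5 rose by 0.57 (log2; SE 0.12, 95% interval 0.33 to 0.82, adjusted p = 0.000379), and each of 25 alternatives kept the call, with log2 fold changes of 0.48 to 0.64. Baat, which joins the activated bile acid to taurine or glycine, ran from 222 to 343 CPM under AL (median 253) and from 167 to 234 CPM under IF (median 203). All 8 IF mice lay below the AL median, with an overlap at the low end of AL and AL mouse 5 highest. Baat had a log2 fold change of -0.47 (SE 0.10, 95% interval -0.68 to -0.26, adjusted p = 0.000645), and it passed without each mouse in turn (-0.53 to -0.43). Of 25 alternatives 24 kept the Baat call, which was lost with an erythrocyte covariate (-0.34, adjusted p = 0.0929, in a range of 6.60e-06 to 0.0929).

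Neither transporter passed. Abcb11, the canalicular export pump, ran from 409 to 548 CPM under AL (median 500.3) and from 328 to 599 CPM under IF (median 429.6). In 7 of 8 IF mice it lay below the AL median, while IF mouse 13 was the highest of all 16. The log2 fold change of Abcb11 was -0.26 (SE 0.12, adjusted p = 0.0778). The call was gained without AL mouse 2 (-0.30, adjusted p = 0.0405), IF mouse 10 (-0.30, 0.0352) or IF mouse 13 (-0.35, 0.0201), without mice 2 and 10 together (-0.35, 0.0157) and by DESeq2 (-0.28, 0.0388), in a range of 0.0157 to 0.348 over all alternatives. Slc10a1, the sodium-dependent uptake carrier of the sinusoidal membrane, had medians of 204.5 CPM under AL and 198 CPM under IF, with overlapping ranges and a log2 fold change of -0.10 (95% interval -0.35 to 0.14, adjusted p = 0.499).

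The feedback genes did not pass either. Nr0b2 ran from 49.1 to 133 CPM under AL (median 102) and from 40.9 to 131 CPM under IF (median 68.0). Its IF mice split, with mice 9 and 10 near the top of the AL range, mice 14 and 15 at its bottom and mice 13 and 16 below it. The log2 fold change of Nr0b2 was -0.46 (SE 0.28, 95% interval -1.05 to 0.14, adjusted p = 0.203). Nr1h4 had medians of 254 and 223 CPM under AL and IF and a log2 fold change of -0.19 (95% interval -0.45 to 0.07, adjusted p = 0.231).

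Markers of other cell types moved with diet in the same livers. Summed over 5 erythrocyte markers, the median was 569 CPM under AL (362 to 956) and 2070.4 CPM under IF (667 to 6879.4); 3 of the 5 were higher under IF, Hba-a1 was the most abundant, and none was at 0. The highest sums were in IF mice 9, 10, 14 and 16. Summed endothelial markers had medians of 139 and 206 CPM (3 of 5 higher, Stab2 most abundant), stellate cell markers 104 and 172 CPM (2 of 5 higher, Dcn), Kupffer cell markers 141 and 185 CPM (1 of 5 higher, Clec4f) and cholangiocyte markers 70.6 and 94.5 CPM (3 of 5 tested higher and 1 lower, Spp1). Adipocyte markers had medians of 27.97 and 8.02 CPM under AL and IF (1 of 2 tested lower), and neuron and glia markers 5.12 and 9.09 CPM (2 of 2 tested higher, Syt1). Hepatocyte markers had medians of 59228.5 and 55380.2 CPM, with 2 of 8 lower, led by Alb. Apart from the fits that follow for the erythrocyte markers, their part in the members' values was not tested.

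The erythrocyte score, the mean log2 CPM of the erythrocyte markers, ran from 5.23 to 6.63 in AL mice and from 6.25 to 9.22 in IF mice. It moves with diet, so a call lost with this covariate does not tell diet and blood markers apart. With the score as a covariate, Slc27a5, Cyp27a1 and Cyp7b1 kept their calls, and the signs of Cyp8b1 (0.14) and Slc10a1 (0.10), which had no call, turned. Cyp7a1 had a log2 fold change of -1.07 with adjusted p = 0.119 (0.000808 to 0.119 over its alternatives), and Baat -0.34 with adjusted p = 0.0929 (6.60e-06 to 0.0929). Over all alternatives, the log2 fold change ran from 0.27 to 0.70 for Cyp27a1 and from 0.53 to 0.93 for Cyp7b1. Without IF mice 9, 10, 14 and 16, an alternative chosen after seeing the data, Cyp27a1 (0.60, adjusted p = 0.00484), Slc27a5 (0.51, 0.00589) and Baat (-0.36, 0.0303) passed, while Cyp7a1 (-1.10, 0.0638) and Cyp7b1 (0.70, 0.104) did not, with 4 IF mice left.

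In mice 25 to 40, none of the 10 genes passed (edgeR), nor did any of the 15938 genes tested, a background of 0%. At an unadjusted p under 0.05, 1 member and 919 genes passed; by DESeq2, 0 members and 6 genes did. The median log2 fold change was -0.07 for the members and -0.01 over all genes tested. The member at the unadjusted level was Nr0b2, which ran from 27.4 to 73.7 CPM under AL (median 40.7) and from 41.0 to 108 CPM under IF (median 69.6). All 8 IF mice lay above the AL median, in overlapping groups. Its log2 fold change was 0.62 (SE 0.22, 95% interval 0.16 to 1.08, adjusted p = 0.785).

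Members that passed in mice 1 to 16 had the following values in mice 25 to 40. Cyp7a1 had medians of 94.0 CPM under AL and 97.3 CPM under IF and a log2 fold change of 0.13 (95% interval -0.48 to 0.74). Cyp7b1 had medians of 26.7 and 17.6 CPM, with all 8 IF mice below the AL median and a log2 fold change of -0.37 (95% interval -0.75 to 0.01, adjusted p = 0.85). For Slc27a5 the log2 fold change was 0.11 (95% interval -0.16 to 0.39), for Cyp27a1 -0.12 (-0.48 to 0.24) and for Baat -0.02 (-0.24 to 0.19). Erythrocyte markers in these livers summed to medians of 522 CPM under AL and 512 CPM under IF.

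The difference between the sets in the diet response was tested itself, and 4 of the 10 genes passed, beside 23.7% of the 17658 genes tested, a share from so few genes that only the single genes are read. The log2 response in mice 1 to 16 minus that in mice 25 to 40 was -1.21 for Cyp7a1 (SE 0.44, adjusted p = 0.0448), 1.0 for Cyp7b1 (SE 0.31, 0.0171), -1.10 for Nr0b2 (SE 0.38, 0.0306) and -0.48 for Baat (SE 0.14, 0.0102). Nr0b2 passed this test although its diet response passed in neither set. The difference for Slc27a5 was 0.43 (95% interval 0.06 to 0.79, adjusted p = 0.0805) and for Cyp27a1 0.50 (0.03 to 0.96, 0.114), short of the threshold. In the same test 2 of 5 erythrocyte, 3 of 5 endothelial, 2 of 5 stellate cell and 2 of 3 neuron and glia markers were higher, cholangiocyte markers were 2 higher and 1 lower of 6, and 1 of 8 hepatocyte markers was lower.

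Of these differences, those of Cyp7a1, Nr0b2 and Baat lost their call in some alternatives, and that of Cyp7b1 kept it in all 4. With no filter on low counts, the adjusted p was 0.0687 for Cyp7a1 and 0.0511 for Nr0b2. Without IF mice 9, 10, 14 and 16 it was 0.0989 for Cyp7a1 and 0.0960 for Baat. Over the alternatives, Cyp7a1 ranged from 0.0276 to 0.0989, Nr0b2 from 0.0170 to 0.0511, Baat from 0.00179 to 0.0960 and Cyp7b1 from 0.00521 to 0.0402.

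Several of these genes differed between the mouse sets. Under AL, 6 of the 10 genes passed between mice 1 to 16 and mice 25 to 40, 3 in each direction, beside 20.0% of 17658 genes (9.59% higher and 10.4% lower in mice 1 to 16). The members' share is above that of all genes, and with 10 genes chosen by name nothing particular to them is read from it. Cyp7b1 ran from 95.4 to 319 CPM in mice 1 to 8 and from 13.1 to 32.8 CPM in mice 25 to 32. No mouse of one set reached the other, which held for 1 of 10 members and 5.43% of all genes. The log2 difference was 2.97 (SE 0.23, 95% interval 2.49 to 3.45, adjusted p = 4.29e-12). Cyp8b1 had medians of 255 and 76.0 CPM, overlapping where mice 25 to 32 reached 180.5 CPM, and a log2 difference of 1.51 (SE 0.31, adjusted p = 0.000468). For Nr0b2 the medians were 102 and 40.7 CPM and the log2 difference 1.21 (SE 0.27, adjusted p = 0.00123). In each of these genes all 8 mice of 1 to 8 lay above the median of mice 25 to 32.

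Lower in mice 1 to 8 under AL were Cyp7a1, Slc10a1 and Slc27a5, with all 8 below the median of mice 25 to 32. Cyp7a1 had medians of 30.5 and 94.0 CPM, overlapping through mice 26 and 29, and a log2 difference of -1.31 (SE 0.31, adjusted p = 0.00292). Slc10a1 had medians of 204.5 and 317 CPM and a log2 difference of -0.47 (SE 0.14, adjusted p = 0.0139). Slc27a5 had medians of 388 and 564 CPM and a log2 difference of -0.36 (SE 0.13, adjusted p = 0.0390), which missed the threshold with relative log expression factors (0.0601) and with no filter (0.0657), in a range of 0.0388 to 0.0657. Baat at 0.26 had an adjusted p of 0.0565 and passed in 2 of 3 alternatives, by DESeq2 (0.29, 0.0117) and with relative log expression factors (0.29, 0.0331), in a range of 0.0117 to 0.0799.

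Under IF, 5 of 10 passed between the sets, beside 37.5% of all genes, again a share near the background. Cyp7b1 ran from 199.9 to 395 CPM in mice 9 to 16 and from 13.2 to 24.8 CPM in mice 33 to 40, a log2 difference of 3.97 (SE 0.25, adjusted p = 6.90e-15). Cyp7a1 ran from 7.87 to 25.97 CPM against 45.4 to 151 CPM, a log2 difference of -2.52 (SE 0.33, adjusted p = 3.78e-07). Cyp8b1 ran from 111 to 358 CPM against 43.6 to 108 CPM, a log2 difference of 1.35 (SE 0.30, adjusted p = 0.000694). These 3 genes did not overlap between the sets under IF, beside 10.7% of all genes. Cyp27a1 (0.68, adjusted p = 0.000877) and Slc10a1 (-0.48, 0.00572) also differed, in overlapping groups. Nr0b2 did not pass under IF (0.11, 0.783). The diet and set comparisons share libraries, so their values are set side by side only.

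Markers of other cell types also differed between the sets in liver. Under AL, 2 of 5 Kupffer cell markers were lower in mice 1 to 16 (medians of the summed markers 141 against 241 CPM, Clec4f most abundant). Higher were 1 of 5 erythrocyte (569 against 522 CPM, Hba-a1), 1 of 5 endothelial (139 against 125 CPM, Stab2) and 1 of 2 adipocyte markers (27.97 against 4.17 CPM). In the cholangiocyte list 1 of 6 was higher, while the summed median was lower (70.6 against 81.2 CPM, Spp1 most abundant). In the hepatocyte list 1 of 8 was higher, while the summed median was lower (59228.5 against 75047 CPM, Alb most abundant). In the stellate cell list 1 of 5 was lower (104 against 118 CPM, Dcn), and in the neuron and glia list 1 of 3 (5.12 against 12.1 CPM, Syt1). Under IF, 5 of 5 erythrocyte markers (2070.4 against 512 CPM), 4 of 5 endothelial (206 against 118 CPM), 3 of 6 cholangiocyte (94.5 against 84.5 CPM), 2 of 2 adipocyte (8.02 against 2.25 CPM) and 1 of 5 stellate cell markers (172 against 137 CPM) were higher. Lower under IF were 1 of 5 Kupffer cell (185 against 249 CPM) and 1 of 3 neuron and glia markers (9.09 against 10.9 CPM), while hepatocyte markers were 2 higher and 3 lower of 8 (55380.2 against 75571.2 CPM). Their part in the members' differences between the sets was not tested.

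**Figure D2:**
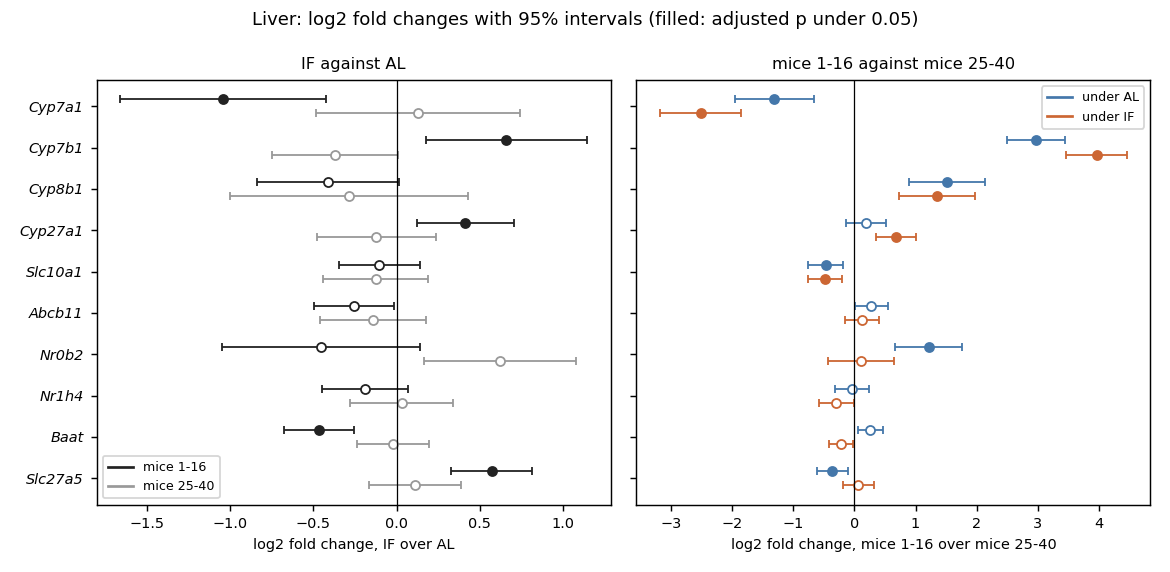
Log2 fold changes in liver of the 10 genes (rows of points) with 95% intervals (horizontal lines), IF over AL in both mouse sets on the left and mice 1 to 16 over mice 25 to 40 under each diet on the right, 8 mice per group; filled points have an adjusted p under 0.05. On the right, Cyp7b1 lies at 2.97 under AL and 3.97 under IF, and Cyp7a1 at -1.31 and -2.52.

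Other genes of the pathway were counted from lists of synthesis enzymes, transporters and regulators. The lists were chosen with earlier results of these data known, so their shares are not read as a result about the pathway. In livers of mice 1 to 16, 13 of 14 other synthesis enzymes were tested, with 4 higher and 6 lower under IF (median log2 fold change -0.22). These 10 of 13 stand beside 44.6% of all genes called (23.5% higher and 21.1% lower), and groups did not overlap for 14.6% of all genes. Cyp39a1, an oxysterol 7-alpha-hydroxylase, ran from 1.497 to 3.65 CPM under AL and from 10.7 to 27.1 CPM under IF, apart in every mouse, a log2 fold change of 2.70 (SE 0.23, adjusted p = 1.87e-09). Cyp46a1, the cholesterol 24-hydroxylase, was also apart, at 4.18 to 9.21 CPM and 13.4 to 41.1 CPM, with a log2 fold change of 1.98 (SE 0.19, adjusted p = 2.17e-08). Hsd3b7, which acts on the 7-alpha-hydroxylated sterols, had medians of 2.21 and 0.429 CPM in overlapping groups and a log2 fold change of -1.91 (SE 0.57, adjusted p = 0.00945).

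Of 15 other transporters 14 were tested, with 8 higher and 4 lower (median 0.40), or 12 of 14 called beside the 44.6% of all genes. Since the list was chosen with earlier results known, nothing is read from this share. Atp8b1, a canalicular phospholipid flippase, ran from 16.9 to 33.3 CPM under AL and from 5.42 to 11.03 CPM under IF (log2 fold change -1.55, SE 0.15, adjusted p = 1.24e-08). Slc10a2, the sodium-dependent carrier best known from the ileum, had a log2 fold change of -1.31 (SE 0.17, adjusted p = 1.36e-06), and both genes were apart between the groups, as were 14.6% of all genes. Abcg5, part of the sterol exporter, rose by 0.98 (log2; SE 0.18, adjusted p = 9.42e-05) with overlap. Among 18 other regulators 15 were tested, with 6 higher and 2 lower (median 0.18), so 8 of 15 were called, a share near the 44.6% of all genes. Ppara, the fatty acid receptor, ran from 7.08 to 12.8 CPM under AL and from 14.8 to 33.7 CPM under IF, apart, with a log2 fold change of 1.24 (SE 0.16, adjusted p = 8.67e-07). The xenobiotic receptors Nr1i3 (1.08, SE 0.28, adjusted p = 0.00528) and Nr1i2 (0.99, SE 0.15, 7.77e-06) rose in overlapping groups. All genes tested had a median of 0.06. In mice 25 to 40, 0 genes of these lists passed by edgeR; over all 15938 genes 919 passed at an unadjusted p under 0.05 and 6 by DESeq2.

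Across tissues, Cyp7b1 and Cyp27a1 were the members detected outside the liver at more than trace level. Cyp7b1 ran from 13.1 to 395 CPM in liver, 7.20 to 11.3 CPM in cortex and 0.0222 to 0.609 CPM in muscle, with no overlap between the tissues. Cyp27a1 ran from 393 to 1499.9 CPM in liver, 51.4 to 149 CPM in muscle and 4.53 to 12.9 CPM in cortex, again with no overlap. The order of muscle and cortex was opposite for the 2 genes. The other 8 members reached at most 1.72 CPM outside the liver, a level found for Slc27a5 in cortex.

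**Figure D3:**
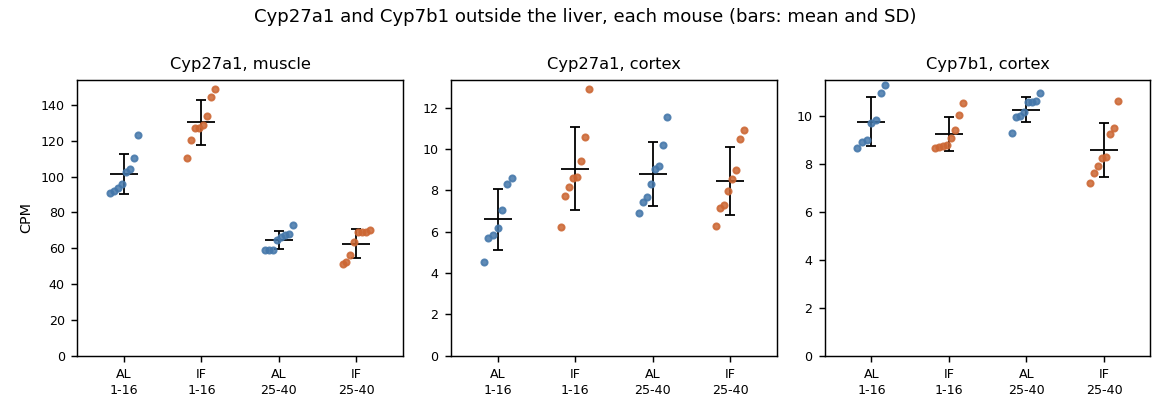
Levels of Cyp27a1 in muscle and of Cyp27a1 and Cyp7b1 in cortex in CPM (vertical axes, from 0) for every mouse (points), by diet and mouse set, 7 or 8 mice per group, with bars for mean and SD. Muscle Cyp27a1 in mice 1 to 16 lies at 90.5 CPM or more, above every mouse of 25 to 40.

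In muscle of mice 1 to 16, 1 member, Cyp27a1, was abundant enough to be tested, and it passed, beside 23.0% of the 15025 genes tested. Cyp27a1 ran from 90.5 to 123 CPM under AL (median 99.1) and from 110.5 to 149 CPM under IF (median 128). All 8 IF mice lay above the AL median, with overlap at the upper end of AL. Cyp27a1 rose by 0.29 (log2; SE 0.07, 95% interval 0.14 to 0.44, adjusted p = 0.00552), and leaving out each mouse in turn, an alternative chosen after seeing the data, gave 0.26 to 0.33, past the test each time. Summed adipocyte markers in the same muscles had medians of 93.2 CPM under AL (30.1 to 331) and 714 CPM under IF (112 to 1860.0), with Cfd the most abundant and 4 of 5 higher. Endothelial markers had medians of 91.4 and 120.2 CPM (2 of 4 tested higher, Pecam1 most abundant) and skeletal muscle markers 147568.8 and 143932.6 CPM (2 of 6 lower, Acta1). The part of these markers in the result was not tested.

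In muscle of mice 25 to 40, 0 of 2 members tested passed by edgeR, beside 0.00653% of 15308 genes. At an unadjusted p under 0.05, 0 members and 1644 genes passed, and by DESeq2 0 members and 91 genes. Cyp27a1 had medians of 65.5 CPM under AL and 66.3 CPM under IF, with a log2 fold change of 0.03 (95% interval -0.14 to 0.20). The difference in response between the sets passed for 0 of 3 members, beside 14.2% of all genes, and was 0.24 for Cyp27a1 (95% interval 0.01 to 0.48, adjusted p = 0.163). By DESeq2 0 members and 2656 genes passed it. At an unadjusted p under 0.05 2 members did, a level at which all genes were not counted. Between the sets, Cyp27a1 was higher in every mouse of 1 to 16 under both diets. It was 1 of 3 members called under AL (38.4% of all genes called, 8.86% apart), with a log2 difference of 0.79 (SE 0.08, adjusted p = 3.72e-09). Under IF it was again 1 of 3 (28% called, 5.06% apart), at 1.03 (SE 0.08, adjusted p = 7.00e-12). Markers differed between the sets too. Higher in mice 1 to 16 were 4 of 6 skeletal muscle, 3 of 5 erythrocyte and 2 of 4 endothelial markers under AL, and 4 of 5 adipocyte, 3 of 4 endothelial and 1 of 5 erythrocyte markers under IF. Lower were 4 of 5 cholangiocyte markers under AL and 3 of 5 under IF, with 1 of 2 hepatocyte markers, and skeletal muscle markers under IF were 1 higher and 1 lower of 6. Their part was not tested.

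In cortex of mice 1 to 16, 0 of 4 members tested passed by edgeR, beside 7.21% of 18462 genes. At an unadjusted p under 0.05, 1 member and 4400 genes passed, and by DESeq2 1 member and 2259 genes. Cyp27a1 ran from 4.53 to 8.62 CPM under AL (median 6.17, n = 7) and from 6.25 to 12.9 CPM under IF (median 8.62, n = 8). All 8 IF mice lay above the AL median, in overlapping groups. The log2 fold change of Cyp27a1 was 0.46 (SE 0.15, 95% interval 0.16 to 0.77, adjusted p = 0.0577), in a range of 0.0226 to 0.281 over its alternatives. Cyp27a1 passed in 3 of 8 alternatives. With the omitted AL mouse 1 included, its log2 fold change was 0.33 with adjusted p = 0.281. In the same libraries 1 of 6 neuron and glia markers was higher under IF (medians of the summed markers 9054.1 and 10759.3 CPM, Mbp most abundant) and 2 of 4 cholangiocyte markers tested were lower (33.1 and 22.8 CPM, Sox9); their part was not tested. Cyp7b1, which is also made in brain, had medians of 9.68 and 8.93 CPM and a log2 fold change of -0.06 (95% interval -0.24 to 0.11).

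In cortex of mice 25 to 40, 0 of 3 members passed by edgeR, beside 0.0109% of 18403 genes. At an unadjusted p under 0.05, 1 member and 2069 genes passed, and by DESeq2 0 members and 73 genes. The member at the unadjusted level was Cyp7b1, with medians of 10.4 CPM under AL and 8.25 CPM under IF. In 7 of 8 IF mice it lay below the AL median, and its log2 fold change was -0.26 (SE 0.08, adjusted p = 0.337). The difference in response passed for 0 of 4 members, beside 2.03% of all genes, and was 0.52 for Cyp27a1 (adjusted p = 0.155). By DESeq2 0 members and 706 genes passed it. At an unadjusted p under 0.05 1 member did, a level at which all genes were not counted. Between the sets under AL 1 of 4 passed, beside 12.6% of all genes: Cyp27a1 was lower in mice 2 to 8, by a log2 difference of -0.42 (SE 0.14, adjusted p = 0.0420), and with no filter on low counts missed the threshold (-0.41, 0.0696; range 0.0234 to 0.0696). In the same comparison 1 of 6 neuron and glia markers was lower (medians of the summed markers 9054.1 against 10358.4 CPM, Mbp most abundant) and 1 of 4 stellate cell markers tested was higher (57.6 against 46.7 CPM, Reln); their part was not tested. Under IF 0 of 4 members passed by edgeR, beside 4.32% of all genes, with 0 at an unadjusted p under 0.05 and 0 by DESeq2.

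The gene whose liver profile lay nearest to each member was found over the 32 liver libraries among 9815 genes with a mean of at least 5 CPM, by the root mean square difference of centred log2 CPM. Nearest to Cyp7a1 was Dclk3, at a distance of 0.594 against a spread of 1.22 for Cyp7a1 itself. For Cyp7b1 it was Gstp-ps (0.460 against 1.77), for Cyp8b1 Tmem19 (0.518 against 0.931) and for Cyp27a1 Clip1 (0.232 against 0.418). Slc27a5 lay nearest to Hrg (0.182 against 0.313), Baat to Ubr3 (0.165 against 0.205), Slc10a1 to Iyd (0.193 against 0.364) and Abcb11 to Kif21a (0.205 against 0.271). For Nr0b2 the nearest was Osgin1 (0.467 against 0.635) and for Nr1h4 Ddx39b (0.172 against 0.314). Relative to their own spread, Baat and Abcb11 had the most distant neighbours. Distances and spreads pool both mouse sets, so differences between the sets enter this order, which was not found within a set.

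On GRCm39 the genes lie on several chromosomes. Cyp7a1 is at chr4:6265612-6275633, Cyp8b1 at chr9:121743422-121745371, Cyp7b1 at chr3:18126114-18297502 and Cyp27a1 at chr1:74752733-74777051. Slc27a5 is at chr7:12722273-12732119, Baat at chr4:49489422-49506557, Slc10a1 at chr12:80999957-81015479 and Abcb11 at chr2:69068626-69172960. Nr0b2 is at chr4:133280687-133283847 and Nr1h4 at chr10:89290096-89369447. Cyp27a1 and Nr0b2 are on the plus strand and the other 8 on the minus strand. Abcb11 shares 136 exon bases with the lncRNA Gm13613 and 19 with the processed pseudogene Gm13614, both on the opposite strand. Whether strand was used in counting is not given in the sources used here, and Gm13613 held at most 1.74 CPM and Gm13614 at most 0.871 CPM in liver.

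Promoter sequences (250 bases before to 50 after the start, from RefSeq, table build GRCm38.p6) were matched for 6 of the 10 members by symbol; those of Cyp7a1, Cyp7b1, Baat and Slc27a5 were not in the table. The 3 shown, of a synthesis, a feedback and an export gene, are those whose windows held a match to the motifs of LRH-1, HNF4 or the bile acid receptor. Each matched GRCm39 exactly, at 1 place on its chromosome: Cyp8b1 at chr9:121745322-121745621 (minus strand), Nr0b2 at chr4:133280437-133280736 (plus) and Abcb11 at chr2:69172911-69173210 (minus). Capitals mark motif matches, searched on both strands.
Cyp8b1: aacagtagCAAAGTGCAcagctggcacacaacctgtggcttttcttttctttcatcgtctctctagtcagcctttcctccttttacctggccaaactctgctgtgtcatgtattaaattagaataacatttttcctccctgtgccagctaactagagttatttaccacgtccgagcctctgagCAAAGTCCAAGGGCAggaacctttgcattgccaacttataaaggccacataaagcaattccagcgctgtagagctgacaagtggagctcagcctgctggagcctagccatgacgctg
Nr0b2: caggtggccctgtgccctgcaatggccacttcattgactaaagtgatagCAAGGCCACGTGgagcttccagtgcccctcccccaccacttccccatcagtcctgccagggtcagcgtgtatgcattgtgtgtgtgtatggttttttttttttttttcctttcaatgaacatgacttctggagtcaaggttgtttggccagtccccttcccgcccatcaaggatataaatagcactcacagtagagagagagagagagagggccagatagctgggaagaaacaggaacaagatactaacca
Abcb11: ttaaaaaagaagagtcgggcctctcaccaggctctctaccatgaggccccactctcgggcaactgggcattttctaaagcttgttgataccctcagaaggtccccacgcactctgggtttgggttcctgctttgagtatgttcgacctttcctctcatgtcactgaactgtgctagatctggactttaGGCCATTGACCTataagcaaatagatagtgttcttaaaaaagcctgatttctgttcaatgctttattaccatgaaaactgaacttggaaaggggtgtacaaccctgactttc

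The motifs searched were an inverted repeat known for the bile acid receptor (GGNCA, any 1 base, then TGACCT), CAAGGNCA (LRH-1), TGNACTTTG (HNF4), CACGTG (E-box) and TTATNTAA (D-box). The Cyp8b1 promoter held TGNACTTTG at 2 places on the minus strand and CAAGGNCA at 1, the latter overlapping a TGNACTTTG match. The Nr0b2 promoter held CAAGGNCA, overlapping a CACGTG match, which reads the same on both strands. The Abcb11 promoter held the inverted repeat, and the window of Nr1h4, at chr10:89342471-89342770 (minus strand), held TTATNTAA. That window lies inside Nr1h4 as placed above, not at its 5′ end. None of the 5 was found in these windows of Cyp27a1 and Slc10a1. Of 32851 mouse promoters of the same length, 0.0883% held the inverted repeat, 6.71% CAAGGNCA, 1.41% TGNACTTTG, 7.15% CACGTG and 3.51% TTATNTAA. A match describes these letters and was not tested as a binding site.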

How the data were processed

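The authors prepared poly-A, strand-marking RNA libraries from PBS-perfused tissues, aligned reads to GRCm39 with HISAT2 and used featureCounts to obtain the deposited values, which are raw counts per gene. Groups came from the sample labels. The members and gene lists were chosen with earlier results of these data known. Levels are CPM of raw library totals. Tests used edgeR 4.0.16 in R 4.3.3 (TMM, filterByExpr with a minimum count of 10 and total of 15, robust quasi-likelihood fit, Benjamini-Hochberg over all genes tested, threshold 0.05), checked on simulated counts, so fold changes are relative to TMM scaling. Cortex AL mouse 1 was left out, because its sex-linked genes go against its label. Diet was tested within each mouse set; set differences and differences in response came from a 4-group fit per tissue. Each library held at least 26097314 counts. Named genes outside the members were the 3 largest log2 fold changes per list with adjusted p under 0.05 and a liver mean of at least 1 CPM. Nearest genes used a prior count of 2. Alternatives were DESeq2 1.42.0, relative log expression factors, other count filters, an unadjusted threshold, a replicate block, 1 fit over all groups, an erythrocyte covariate, leaving out mice 2 and 10, and leaving out each mouse in turn. Added after seeing the data were leaving out IF mice 9, 10, 14 and 16, leave-one-out in muscle and including cortex AL mouse 1.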

Additional observations from a re-analysis of the deposited data

Results flagged for a closer look

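In 3 of 52 combinations of gene and group, which share their libraries between genes, 1 mouse stood apart from the rest of its group by Dixon's test; chance gives about 1 in 20. Cyp27a1 in liver was 1499.9 CPM in IF mouse 13, with the next mouse at 977 CPM. Abcb11 in liver was 678 CPM in AL mouse 26, with the next at 502 CPM. Baat in liver was 343 CPM in AL mouse 5, with the next at 278 CPM.

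By the test of the difference itself (edgeR), the diet response in liver of mice 1 to 16 minus that of mice 25 to 40 was -1.21 for Cyp7a1, 1.0 for Cyp7b1, -1.10 for Nr0b2 and -0.48 for Baat, on the log2 scale. Sex and any separate handling of the sets cannot be told apart.

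Xist, at 213 CPM in the omitted library of cortex AL mouse 1, was far above the other libraries of mice 1 to 16.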

How the results depend on the processing

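In liver of mice 1 to 16, where edgeR called 7234 genes and 5 members, the erythrocyte covariate left 3995 genes and 3 members, and turned the signs of Cyp8b1 (0.14) and Slc10a1 (0.10). Leaving out IF mice 9, 10, 14 and 16, chosen after seeing the data, left 3 members. With those mice out, 2 members passed the test of the difference in response, and the signs of Cyp8b1 (0.22) and Slc10a1 (0.05) turned; with no filter 2 members passed it. In liver of mice 25 to 40, 919 genes and 1 member passed at an unadjusted p under 0.05, and 6 genes by DESeq2. The cause of these shifts was not tested.

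In muscle, 5309 genes passed at an unadjusted p in mice 1 to 16 (3463 adjusted). In mice 25 to 40, where 1 gene passed, 1644 did so unadjusted, 91 by DESeq2, 5 with no filter and 38 in 1 fit over all groups. Between the sets under AL, 2 members passed with no filter. In cortex of mice 1 to 16 (1332 genes), counts were 4400 unadjusted, 2259 by DESeq2, 498 without mice 2 and 10, 294 with AL mouse 1 included and 2044 in the fit over all groups. There 1 member passed unadjusted, 1 by DESeq2, 1 with at least 10 counts in every library and 1 in the fit over all groups, and Baat changed sign with AL mouse 1 included (0.01 against -0.13). In cortex of mice 25 to 40 (2 genes), counts were 2069 unadjusted, 73 by DESeq2 and 4 in the fit over all groups, and 1 member passed unadjusted. The cortex difference in response was called in 397 genes, 220 with no filter and 706 by DESeq2. Between the sets under AL, 0 members passed in cortex with no filter by edgeR. With the filter, 1 passed at an unadjusted p under 0.05 and 1 by DESeq2, beside 2931 genes by DESeq2.

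With the replicate number as a block, 382 genes passed in cortex of mice 1 to 16 and 0 in cortex of mice 25 to 40 (2069 unadjusted and 73 by DESeq2 without the block), and 7090 in liver of mice 1 to 16, where Cyp7b1 had a log2 fold change of 0.74 and adjusted p = 0.0704 (0.00192 to 0.104 over its alternatives). The numbers were not taken to pair the mice, since no tissue and set had every same-numbered correlation above 0.1. In mice 1 to 16 these ran from -0.053 to 0.182 in liver (2 of 8 best with their own number), -0.193 to 0.130 in muscle (0 of 8) and -0.360 to 0.236 in cortex (0 of 7). In mice 25 to 40 they ran from -0.276 to 0.191 (2 of 8), -0.394 to 0.546 (1 of 8) and -0.357 to 0.267 (1 of 8).

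Leaving out each liver mouse of 1 to 16 in turn gave 6842 to 7219 genes and 4 to 6 members. In mice 25 to 40 it gave 0 genes, 0 members and sign changes in Cyp27a1 (-0.20 to 0.03), Nr1h4 (-0.04 to 0.10) and Baat (-0.05 to 0.02). Apart from leave-one-out, 210 of 227 fold changes of members kept their direction and side of the threshold, 8 lost the call, 6 gained it and 3 reversed. Depth limits the members near 0 in muscle and cortex.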
